A study of Rattus norvegicus with 6 samples.

Results

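The activating transcription factor 4 (ATF4) stress response and amino acid supply were followed through 10 named rat genes. They are Atf4 itself, its partner Cebpb, its targets Ddit3 and Trib3, the amino acid synthesis genes Asns and Psat1, and the transporter genes Slc7a3, Slc7a5, Slc7a11 and Slc3a2. Probes were assigned to a gene where the RefSeq accession printed for the probe, without its version, belonged to that symbol. Of the 10 genes, 9 had a probe and 8 were bright enough to be tested, among 5697 named genes and 21847 genes and unnamed probes tested in all. The list was chosen by a look at earlier values of the same LIPUS and control arrays, so the values of its genes are given as a description and support no test of the list.

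The cells were bone marrow cells of male rats aged 8 weeks, cultured under osteogenic conditions and collected on day 10. LIPUS cultures received low-intensity pulsed ultrasound, a mechanical stimulus of short sound bursts that is used on healing fractures, and control cultures received none. RNA of 3 LIPUS and 3 control samples was labelled with the dye Cy3 and put on 1 single-colour Agilent rat array each. The labels do not say whether replicates came from separate animals or cultures, so p-values cover the spread between these samples, which may be technical.

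Cells that run short of amino acids or of folding capacity in the endoplasmic reticulum phosphorylate the initiation factor eIF2 alpha, which slows most translation but lets ATF4 protein be made. ATF4 pairs with C/EBP proteins on composite DNA elements and switches on genes for amino acid import and synthesis, and, when the stress persists, the factor CHOP (the product of Ddit3) and the pseudokinase TRIB3, which feeds back on ATF4. In the mouse, ATF4 is also needed for osteoblast maturation and for the amino acid supply that collagen synthesis draws on. ATF4 is controlled largely at translation, which an RNA array does not measure.

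The start-site regions of Trib3, Ddit3 and Asns are shown because Trib3 and Ddit3 were both lower in LIPUS cultures while Asns, another target of ATF4, did not pass the test. Each run holds the 250 bases before the start of the gene and the first 50 bases of it, read 5′ to 3′ on the gene's strand, from RefSeq on build GRCr8. Capitals mark a match to the C/EBP-ATF composite element, searched as TGATGNAA on both strands. The windows lie at chr3:161275484-161275783 (minus strand) for Trib3, chr7:65001445-65001744 (plus strand) for Ddit3 and chr4:36769366-36769665 (minus strand) for Asns.
Trib3: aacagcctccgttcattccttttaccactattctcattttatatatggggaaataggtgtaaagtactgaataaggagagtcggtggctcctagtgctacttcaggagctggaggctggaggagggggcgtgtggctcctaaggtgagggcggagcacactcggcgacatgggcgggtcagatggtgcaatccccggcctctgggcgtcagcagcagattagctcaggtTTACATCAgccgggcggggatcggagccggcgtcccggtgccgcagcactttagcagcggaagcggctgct
Ddit3: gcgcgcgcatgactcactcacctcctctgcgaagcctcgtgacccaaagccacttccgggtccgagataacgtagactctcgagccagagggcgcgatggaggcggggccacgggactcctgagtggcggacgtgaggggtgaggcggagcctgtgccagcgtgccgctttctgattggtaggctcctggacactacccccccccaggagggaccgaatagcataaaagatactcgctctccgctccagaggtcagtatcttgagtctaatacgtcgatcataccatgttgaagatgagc
Asns: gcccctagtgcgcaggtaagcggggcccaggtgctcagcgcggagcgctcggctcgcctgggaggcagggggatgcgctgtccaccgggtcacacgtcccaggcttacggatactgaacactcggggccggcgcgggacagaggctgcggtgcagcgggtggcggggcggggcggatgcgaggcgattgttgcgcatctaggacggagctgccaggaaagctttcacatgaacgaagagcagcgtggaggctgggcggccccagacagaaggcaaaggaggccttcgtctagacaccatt
The Trib3 window held the element on the opposite strand, as TTACATCA, at positions -21 to -14 from the start. TGATGNAA occurred in 3.98% of all 33469 windows of 300 bases. RefSeq gave a window for 9 of the 10 genes, all but Slc7a3, and the letters of this element were in that of Trib3 only. The cAMP response element TGACGTCA, held by 1.83% of all windows, and the endoplasmic reticulum stress element, held by 0.0657%, were in no window of the 9 genes. The antioxidant response element, searched as TGACNNNGC and held by 12.1% of all windows, was read in that of Cebpb at positions -61 to -53 and in 1 of the windows of Slc3a2 at positions -45 to -37. A match of letters is a description of the window, not a sign that a factor was bound there. A missing match covers the exact letters within these 300 bases only and does not show that a gene lacks the element.

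The share of probes above background was alike in the groups: between 55.3% and 61.9% on the LIPUS arrays and between 53.5% and 61.3% on the control arrays. Median spot brightness before correction was 152 to 185 on the LIPUS arrays and 173 to 213 on the control arrays. Spot positions in the scans place all LIPUS arrays and control 3 on the 4 positions of 1 slide and control 1 and control 2 on another slide. The slides are inferred from the positions and the tilt of the spot grid and are not named in the labels. Control 3 stood apart from control 1 and control 2 on the second principal component, which held 18.4% of the variance. The first component held 46.6% and separated the groups. On it control 3, at -15.9, lay between control 1 and control 2 (-37.9 and -38.4) and the LIPUS arrays (27.8 to 35.2). The called genes were therefore also fitted with slide as a block, which compares the LIPUS arrays with control 3. Levels are log2 brightness relative to the 75th percentile of the array's gene probes, and the level of a probe is compared between arrays and not with that of another probe. Changes are LIPUS minus control, with limma's standard error (SE), and a gene was called where the p-value, adjusted by Benjamini and Hochberg over everything tested, was under 0.05.

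In LIPUS cultures 3 of the 8 tested genes were called lower, namely Trib3, Slc7a3 and Ddit3, and 0 were called higher. Of everything tested, 3.74% was called lower in LIPUS cultures and 6.63% in either direction, with 2.89% higher. At an unadjusted p under 0.05 in limma, 5 of the 8 passed, and so did 4827 of the 21847 tested in all. Counts at an unadjusted p given for other lists are to be read beside that number. The change was below 0 for 7 of the 8 genes, as for 46% of everything tested, with a median of -0.45 against 0.03 over all tested; without the 3 called genes the median was -0.26. The LIPUS and control arrays did not overlap, with LIPUS lower, for 7 of the 8 genes, which held for 12.7% of everything tested (27.2% in either direction), and Cebpb was the exception. The gaps between the groups were 1.64 for Trib3, 1.48 for Slc7a3, 0.80 for Ddit3, 0.19 for Slc3a2, 0.07 for Atf4, 0.014 for Slc7a5 and 0.0019 for Asns on the log2 scale, so the separation of the last 3 was close to nothing.

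**Figure D1:**
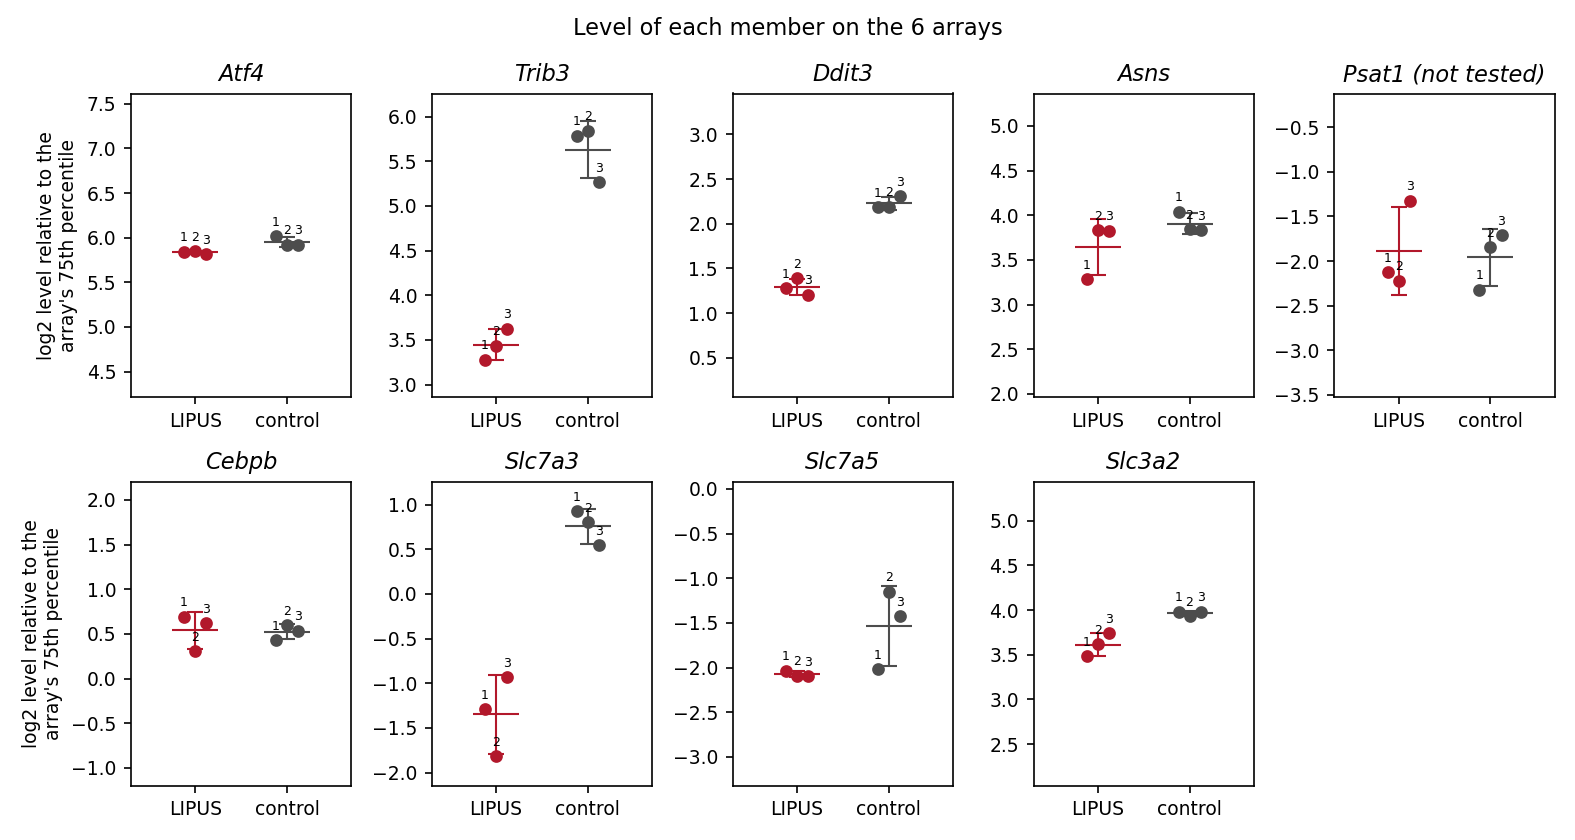
Level of 9 genes on the 3 LIPUS and 3 control arrays, as log2 brightness relative to the array's 75th percentile; points are arrays with their replicate number, bars the mean and SD, and every panel spans the same number of log2 units. Trib3 lies between 3.28 and 3.63 on LIPUS arrays and between 5.26 and 5.84 on control arrays, while the groups of Cebpb overlap.

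Trib3 (NM_144755) encodes a pseudokinase of the Tribbles family that ATF4 and CHOP induce and that restrains ATF4 and the kinase AKT. Its level was 3.28, 3.44 and 3.63 on LIPUS arrays 1, 2 and 3, against 5.79, 5.84 and 5.26 on control arrays 1, 2 and 3. Every LIPUS array was below every control array, and control 3 was the lowest control. The mean was 3.45 ± 0.17 in LIPUS cultures and 5.63 ± 0.32 in control cultures (SD, n = 3 each), a log2 change of -2.18 ± 0.20 (SE; 95% interval -2.63 to -1.74) or 4.55-fold lower, with limma's adjusted p at 0.000607. Its change ranked as number 19 from the lowest of all 21847. With slide as a block the change was -1.82 ± 0.21 (limma, adjusted p 0.0260), and in the authors' deposited value table it was -2.17 ± 0.30 (limma, adjusted p 0.0222). Of the pixels of its spot, 0% were at the scanner's limit on LIPUS arrays and between 0% and 15% on control arrays.

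Ddit3 (NM_024134) encodes CHOP, a C/EBP-family factor that accumulates under lasting stress and favours cell death. Its level was 1.28, 1.39 and 1.21 on LIPUS arrays 1, 2 and 3, against 2.19, 2.19 and 2.31 on control arrays 1, 2 and 3. The arrays of each group lay close together, and control 3 was the highest control, unlike for Trib3. The mean was 1.29 ± 0.09 in LIPUS cultures and 2.23 ± 0.07 in control cultures (SD, n = 3 each), a change of -0.94 ± 0.15 (SE; 95% interval -1.28 to -0.59) or 1.92-fold lower, with limma's adjusted p at 0.00728. The slide block gave -1.02 ± 0.18 and ended the call (limma, adjusted p 0.0559), with a change of the same size, and the value table gave -1.03 ± 0.15 (limma, adjusted p 0.0241).

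Atf4 (NM_024403) did not pass the test. Its level was 5.84, 5.85 and 5.81 on LIPUS arrays, against 6.01, 5.92 and 5.92 on control arrays, in the order of the replicates. Its change was -0.12 ± 0.15 (SE, limma adjusted p 0.694) and its 95% interval -0.45 to 0.22. The spot was near the top of the scanner's range, with brightness between 39752 and 48026 on LIPUS arrays and between 45480 and 62996 on control arrays, and 0% of its pixels on LIPUS arrays and up to 38% on control arrays were at the limit, which could compress a difference. In the value table, where Atf4 stood at no more than 15.2% of the column's highest signal on LIPUS arrays and 22.6% on control arrays, the change was -0.19 ± 0.15 (limma, adjusted p 0.519).

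Cebpb (NM_024125), whose product pairs with ATF4 on composite elements, was read by 10 spots of 1 probe. Its level was 0.69, 0.31 and 0.62 on LIPUS arrays 1, 2 and 3, against 0.43, 0.60 and 0.54 on control arrays 1, 2 and 3. The groups overlapped, and the change of 0.02 ± 0.17 (SE; 95% interval -0.36 to 0.40; limma adjusted p 0.966) was smaller than the SD of 0.17 to 0.30 between spots of 1 array; its sign turned to -0.04 when arrays were centred on their medians and to -0.33 when they were scaled to spike-in spots.

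Slc7a3 (NM_017217) encodes a transporter that imports arginine and lysine, the cationic amino acids. Its level was -1.29, -1.82 and -0.93 on LIPUS arrays 1, 2 and 3, against 0.93, 0.80 and 0.55 on control arrays 1, 2 and 3. Every LIPUS array was below every control array, with LIPUS 2 the lowest of all. The mean was -1.35 ± 0.45 in LIPUS cultures and 0.76 ± 0.19 in control cultures (SD, n = 3 each), a change of -2.11 ± 0.23 (SE; 95% interval -2.63 to -1.58) or 4.30-fold lower, with limma's adjusted p at 0.00121. Background-subtracted brightness was 229, 91 and 284 on LIPUS arrays, against 1667, 1212 and 1401 on control arrays, and on LIPUS 2 it was just above the array's background limit of 84.6. The slide block gave -1.89 ± 0.33 and ended the call (limma, adjusted p 0.0520), and the value table gave -2.39 ± 0.23 (limma, adjusted p 0.0129).

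Slc3a2 and Slc7a5 encode the heavy chain and a light chain of the transporter that exchanges glutamine for leucine and other large neutral amino acids. Slc3a2 (NM_019283) was at 3.49, 3.62 and 3.74 on LIPUS arrays, against 3.98, 3.93 and 3.98 on control arrays. The groups were apart but the change of -0.35 ± 0.16 (SE; 95% interval -0.70 to -0.0025) did not pass the test over all genes (limma, adjusted p 0.223). Slc7a5 (NM_017353) was near background, above it on 1 LIPUS and 2 control arrays, and read -2.04, -2.09 and -2.09 on LIPUS arrays, against -2.02, -1.15 and -1.43 on control arrays. Its change of -0.54 ± 0.22 did not pass (limma, adjusted p 0.188) and turned to 0.75 ± 0.49 in the value table (limma, adjusted p 0.433), so these arrays give it no direction. Slc7a11, the cystine importer that uses the same heavy chain, had no matched probe and is not analysed here.

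Asns (NM_013079) encodes asparagine synthetase, a standard readout of ATF4 activity. It was at 3.29, 3.83 and 3.83 on LIPUS arrays 1, 2 and 3, against 4.04, 3.84 and 3.83 on control arrays 1, 2 and 3. LIPUS 1 was low, and LIPUS 2 and 3 were level with control 2 and 3. The change was -0.26 ± 0.19 (SE; 95% interval -0.69 to 0.18; limma adjusted p 0.469). Psat1 (NM_198738), the phosphoserine aminotransferase of serine synthesis, was above background on 1 LIPUS and 1 control array and was not tested; it read -2.12, -2.22 and -1.33 on LIPUS arrays, against -2.32, -1.85 and -1.71 on control arrays.

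**Figure D2:**
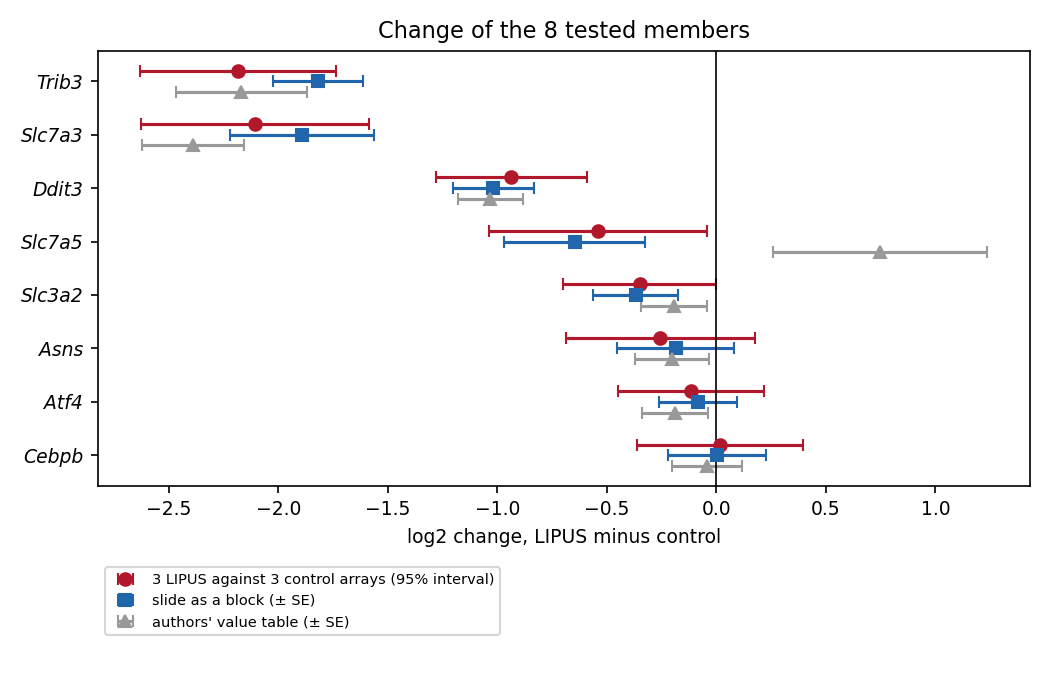
Log2 change, LIPUS minus control, of the 8 tested genes: red circles with 95% intervals compare 3 LIPUS with 3 control arrays, blue squares (± SE) include slide as a block, and grey triangles (± SE) come from the authors' value table. Trib3, Slc7a3 and Ddit3 lie below 0 in each, from -2.39 to -0.94, and the value table differs in sign for Slc7a5 and, close to 0, for Cebpb.

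Trib3, Slc7a3 and Ddit3 were lower in LIPUS cultures under all 21 other ways of processing that were tried. Trib3 passed the test in 20 of them, and Slc7a3 and Ddit3 in 19 each. All passed without any 1 array, with changes between -2.37 and -2.08 for Trib3, between -2.31 and -1.87 for Slc7a3 and between -0.99 and -0.89 for Ddit3. On the slide that holds both groups, with 1 control array, the changes were -1.82 for Trib3, -1.89 for Slc7a3 and -1.02 for Ddit3. Their calls ended there, as did every other call on the arrays. Between the slides, control 1 and control 2 exceeded control 3 by 0.55 for Trib3 and by 0.32 for Slc7a3 and differed from it by -0.12 for Ddit3.

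**Figure D3:**
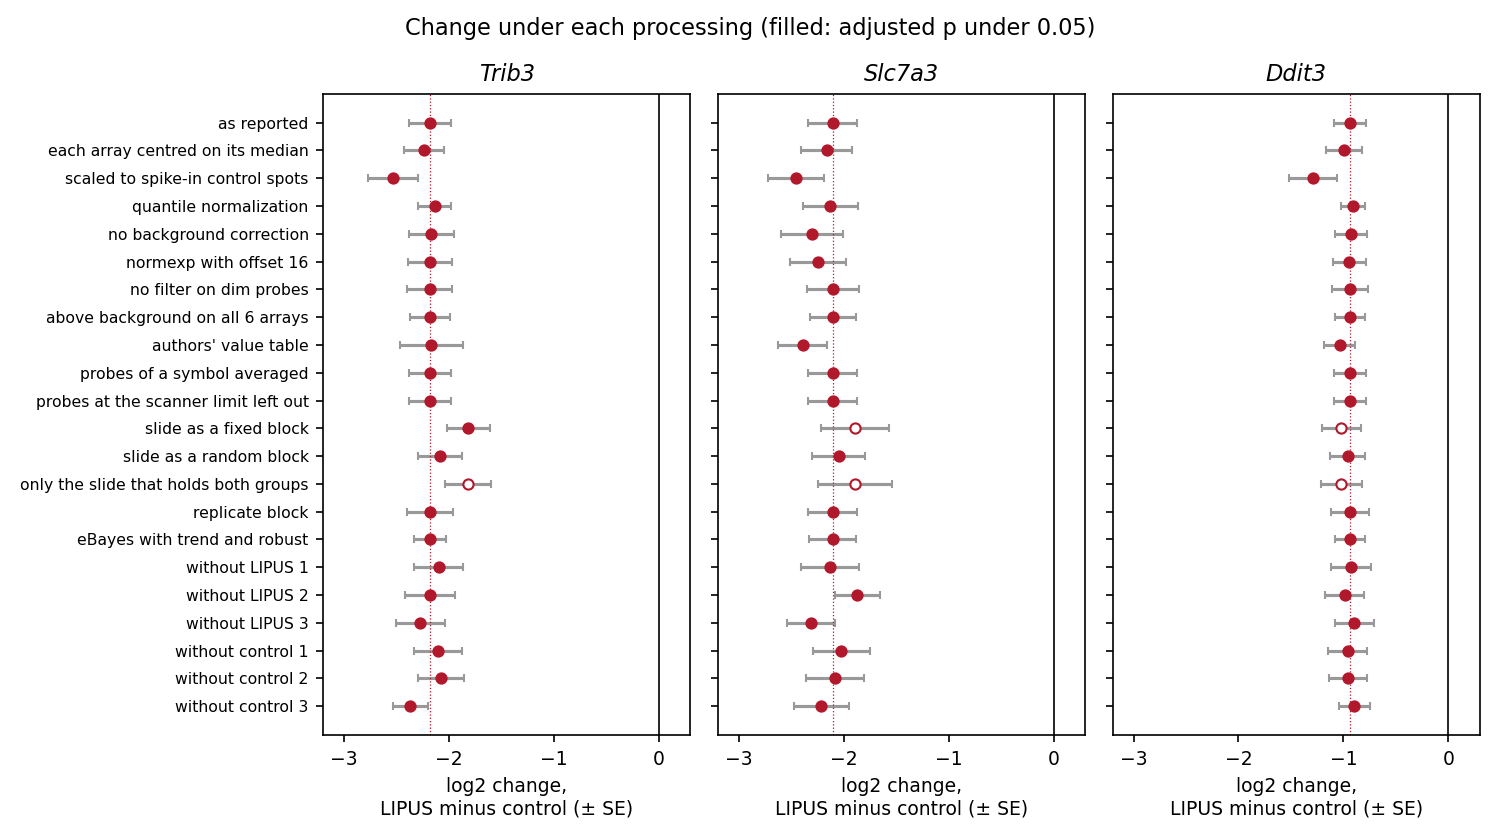
Log2 change ± SE, LIPUS minus control, of Trib3, Slc7a3 and Ddit3 as reported (top) and under each of 21 other ways of processing; filled points had an adjusted p under 0.05. Every point is below 0, and the open points are those with slide as a fixed block (Slc7a3 and Ddit3) and with the slide that holds both groups alone (all 3).

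Over the 6 arrays, the named genes whose pattern lay nearest to that of Trib3, by the distance between array values centred on each gene's mean, were Kcnk13, Arl11 and Prkcb. Their distances were 0.37, 0.42 and 0.59, and their changes were -2.06 for Kcnk13, -2.14 for Arl11 and -1.82 for Prkcb. Among named genes, Slc7a3 came at rank 6 in this order, with a distance of 0.62, and Ddit3 at rank 190, with 1.66. The other tested genes of the list came between rank 675 (Slc7a5) and rank 2697 (Cebpb). These distances rest on 6 arrays that fall into 2 groups, so they share the group difference.

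Markers of other cells moved with the same groups, and in bulk RNA fewer cells of a type and less RNA per cell cannot be told apart. The counts below stand beside 3.74% of everything tested called lower and 2.89% called higher. Of 17 tested macrophage and monocyte markers, 9 fell and 0 rose in LIPUS cultures, with a median change of -0.88, among them Clec10a (-2.99 ± 0.18) and Csf1r (-0.98 ± 0.21). Spi1 (0.09 ± 0.35), and C1qa, C1qb and Lyz2, which were at the scanner's limit on 5 or 6 arrays, read above 0 and did not pass. In the value table C1qa (-1.19), Tyrobp (-1.11), Cd68 (-0.95), Laptm5 (-0.68) and C1qb (-0.26), all at the limit on some arrays, were below 0. Lyz2 (0.11) and Spi1 (0.45) were above 0 there. The summed linear level of the 11 of them below the scanner's limit, where 1 is an array's 75th percentile and the brightest probes weigh most, was 72.1 to 89.2 on LIPUS arrays, against 227 to 245 on control arrays. All 17 were above background on every array, while Cd163, Mrc1 and Ptprc had no probe. Of 5 endothelial markers, 3 fell and 0 rose, with a summed level of 2.61 to 2.95 in LIPUS cultures and 6.02 to 6.70 in control cultures; Emcn, Flt1 and Pecam1 were too dim to test. Of 13 cell cycle genes, 7 fell and 0 rose (sum 24.4 to 25.0 on LIPUS arrays, against 39.7 to 46.6 on control arrays), and of 10 osteoblast markers 4 rose and 0 fell (138 to 150, against 74.2 to 77.4 for the 7 below the limit). The osteoblast markers Spp1, Bglap and Col1a2 were at the scanner's limit on all 6 arrays and could show no change there; in the value table their changes were 2.07 (limma, adjusted p 0.0103) for Spp1, 1.97 (limma, adjusted p 0.0135) for Bglap and 0.11 (limma, adjusted p 0.717) for Col1a2. Adipocyte markers (6 tested) and granulocyte and mast cell markers (7 tested) had 1 member each that rose, and lymphocyte markers (4 tested, 2 at an unadjusted p under 0.05 in limma) and erythroid markers (1 tested) had 0 calls. With slide as a fixed block, 7 macrophage and monocyte markers, 1 endothelial marker, 3 osteoblast markers and 0 cell cycle genes were called. The adipocyte and the granulocyte and mast cell calls ended, and 1.29% of everything tested was called. The part of these cells in the lower Trib3, Slc7a3 and Ddit3 was not tested.

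Related genes were read from 10 lists of 237 symbols, chosen with earlier results known, of which 151 were tested. Of these, 4 rose and 7 fell in LIPUS cultures and 140 did not pass, which is 7.28% called, beside 6.63% of everything tested, with a median change of 0.05.

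Of 22 other targets of ATF4 and the integrated stress response, 1 rose and 0 fell, beside 2.89% and 3.74% of everything tested, with a median of 0.06. The gene that rose was Gadd45b, a stress-induced growth arrest gene. It was at 3.07, 2.72 and 3.06 on LIPUS arrays, against 1.71, 2.13 and 1.88 on control arrays, a change of 1.05 ± 0.18 (limma, adjusted p 0.00991). Atf3, a factor induced downstream of ATF4, was at 1.43, 0.95 and 1.57 on LIPUS arrays and 2.08, 2.14 and 1.42 on control arrays; the groups overlapped and it did not pass (change -0.56 ± 0.24, limma adjusted p 0.206). Other targets that did not pass were Gadd45a (-0.56), the asparaginyl-tRNA synthetase gene Nars1 (-0.45), Cth (-0.50), which makes cysteine, Ppp1r15a (-0.21), the stress-induced subunit of the eIF2 alpha phosphatase, and Ddit4 (0.10), an inhibitor of mTORC1. Atf5 was at the scanner's limit on all 6 arrays and gives no difference there; in the value table its change was -0.61 ± 0.15 (limma, adjusted p 0.0910). Chac1, Sesn2 and Mthfd2 had no matched probe.

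Upstream, 0 of 13 genes for eIF2 kinases, phosphatases and initiation factors were called by limma, 2 having an unadjusted p under 0.05. The smallest p was that of Eif2b5, a subunit of the exchange factor of eIF2, with a change of 0.48 ± 0.16 (limma, adjusted p 0.118). Eif2ak2, which encodes the RNA-activated kinase PKR, had a change of 0.61 ± 0.22, which was 0.11 with slide as a block. Eif2ak3, which encodes the endoplasmic reticulum kinase PERK, was above background on 1 LIPUS and 2 control arrays only, with a change of -0.39 ± 0.23, and -0.09 in the value table. Of 22 genes of folding and the unfolded protein response 1 rose, beside 2.89% of everything tested called higher. That gene was Selenos (0.71 ± 0.18, limma adjusted p 0.0494), which takes part in removing misfolded proteins. Selenos passed in 4 of 21 other ways of processing and did not pass in the value table. Hspa5, the chaperone BiP, had a change of -0.06 ± 0.16. Of 12 genes by which mTORC1 senses amino acids and controls translation 0 were called, and 2 had an unadjusted p under 0.05 in limma.

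Among 12 C/EBP, ATF and related factors 0 were called by limma, 5 having an unadjusted p under 0.05. The smallest p was that of Cebpe, which drives granulocyte maturation, with a change of -0.67 ± 0.19 (limma, adjusted p 0.0695), and in the value table its change was -1.58 ± 0.27 (limma, adjusted p 0.0376). Cebpe was near background on LIPUS arrays 1, 2 and 3, with background-subtracted brightness of 60, 96 and 83 against limits of 101, 84.6 and 49.6. It was above background on 2 LIPUS and 3 control arrays. Cebpa (0.17 ± 0.18) and Cebpd (0.04 ± 0.17) did not pass, and Trib1 and Trib2, the other Tribbles genes, had no matched probe. Among 16 genes of cystine use, glutathione and targets of the factor NRF2, Hmox1, which breaks down haem, fell, beside 3.74% of everything tested. It was at 4.09, 3.83 and 4.09 on LIPUS arrays, against 5.32, 5.26 and 5.32 on control arrays, a change of -1.29 ± 0.16 (limma, adjusted p 0.00187), and it kept the call with slide as a block (-1.31, limma adjusted p 0.0384). Nfe2l2, which encodes NRF2, had a change of -0.23 ± 0.15 and did not pass.

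**Figure D4:**
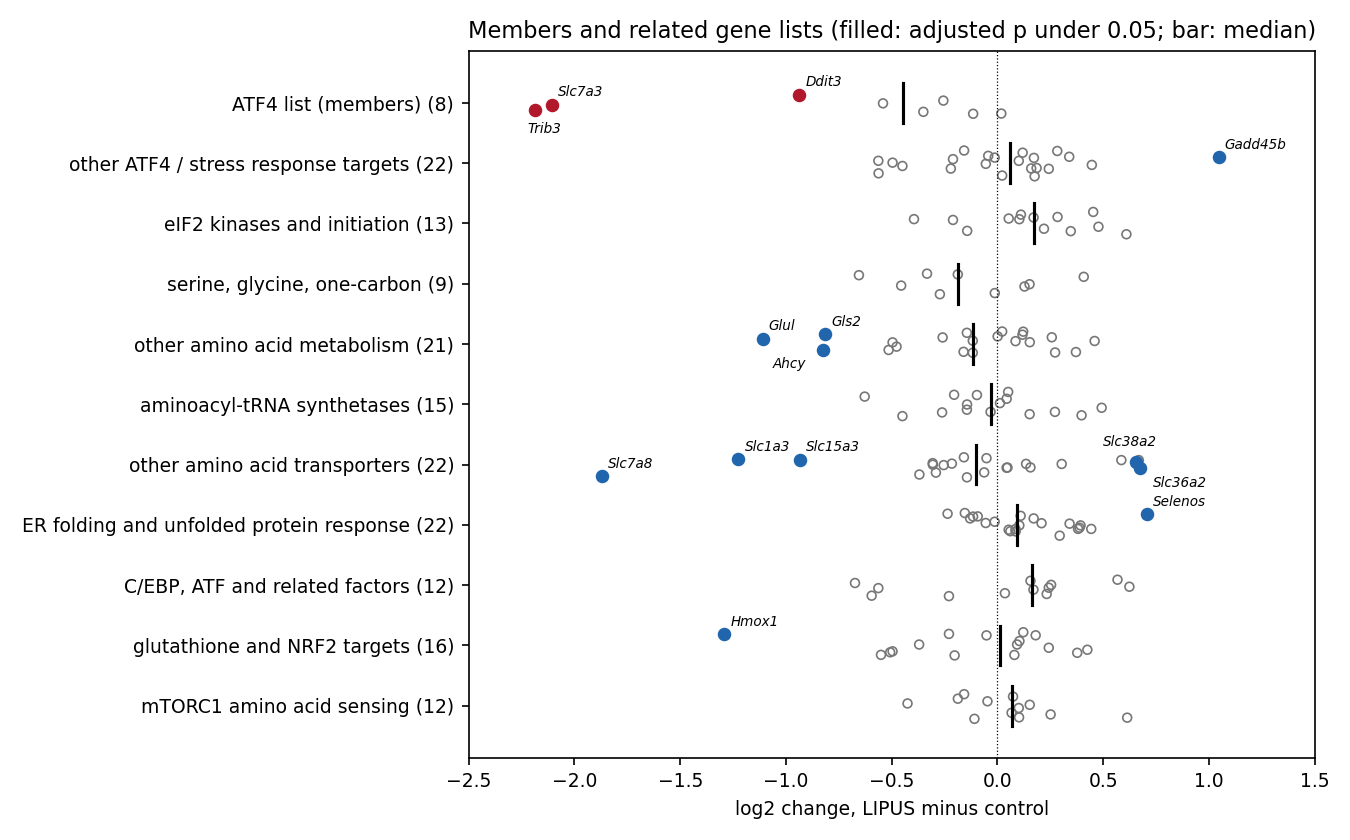
Log2 change, LIPUS minus control, of every tested gene of the ATF4 list and of 10 related lists, with the number tested in brackets; filled points had an adjusted p under 0.05 and are named, and bars are medians. The medians of the related lists lie between -0.19 and 0.17, and that of the ATF4 list is -0.45; some genes stand in several lists.

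Amino acid metabolism outside the list had 3 genes of 21 that fell and 0 that rose, beside 3.74% and 2.89% of everything tested. Glul, glutamine synthetase, was at 0.22, 0.44 and 0.16 on LIPUS arrays, against 1.53, 1.18 and 1.45 on control arrays, a change of -1.11 ± 0.17 (limma, adjusted p 0.00544). The others were Ahcy (-0.83 ± 0.16), which clears S-adenosylhomocysteine, and Gls2 (-0.82 ± 0.21, limma adjusted p 0.0497), a glutaminase. Gls2 passed in 6 of 21 other ways of processing, and in the value table its change was -0.17 (limma, adjusted p 0.785). In serine, glycine and folate metabolism 0 of 9 genes were called, 3 having an unadjusted p under 0.05 in limma. Psph, the last enzyme of serine synthesis, was at 0.47, 0.72 and 0.81 on LIPUS arrays and at 1.65, 1.46 and 0.85 on control arrays, a change of -0.66 ± 0.22 that did not pass (limma, adjusted p 0.122), with control 3 level with the LIPUS arrays. Shmt2 (-0.27 ± 0.16) and Phgdh (-0.01 ± 0.18, with 3 arrays at the scanner's limit) did not pass either. Of 15 tRNA synthetases of the cytosol 0 were called and 3 had an unadjusted p under 0.05 in limma, Wars1 having the smallest p (-0.63 ± 0.19, adjusted p 0.0828).

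Of 22 other amino acid transporters, 2 were called higher and 3 lower in LIPUS cultures, beside 2.89% and 3.74% of everything tested. Slc7a8, a light chain for neutral amino acids that also uses the heavy chain encoded by Slc3a2, was at -0.94, -0.47 and -1.13 on LIPUS arrays, against 1.46, 1.24 and 0.37 on control arrays, a change of -1.87 ± 0.29 (limma, adjusted p 0.00539). Control 3 was the lowest control, and with slide as a block the change was -1.22 and the call ended (limma, adjusted p 0.0980). Slc1a3, a glutamate importer, was at 3.44, 3.31 and 3.40 on LIPUS arrays, against 4.83, 4.61 and 4.38 on control arrays, a change of -1.22 ± 0.17 (limma, adjusted p 0.00346). Slc15a3, a lysosomal carrier of histidine and small peptides, fell by 0.93 on the log2 scale (SE 0.17). The genes that rose were Slc38a2 (0.66 ± 0.16, limma adjusted p 0.0429), a carrier of small neutral amino acids that amino acid shortage induces, and Slc36a2 (0.68 ± 0.17, limma adjusted p 0.0411), a proton-coupled carrier of glycine and proline. Slc38a2 was at 4.22, 4.30 and 4.44 on LIPUS arrays and at 3.70, 3.79 and 3.50 on control arrays. The groups were apart for both genes, but neither Slc38a2 nor Slc36a2 passed when any 1 array was left out. Of the 6 tested genes of the Slc7 family, 2 fell, Slc7a3 and Slc7a8, and Slc7a1, the widely used cationic transporter, had no matched probe.

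**Figure D5:**
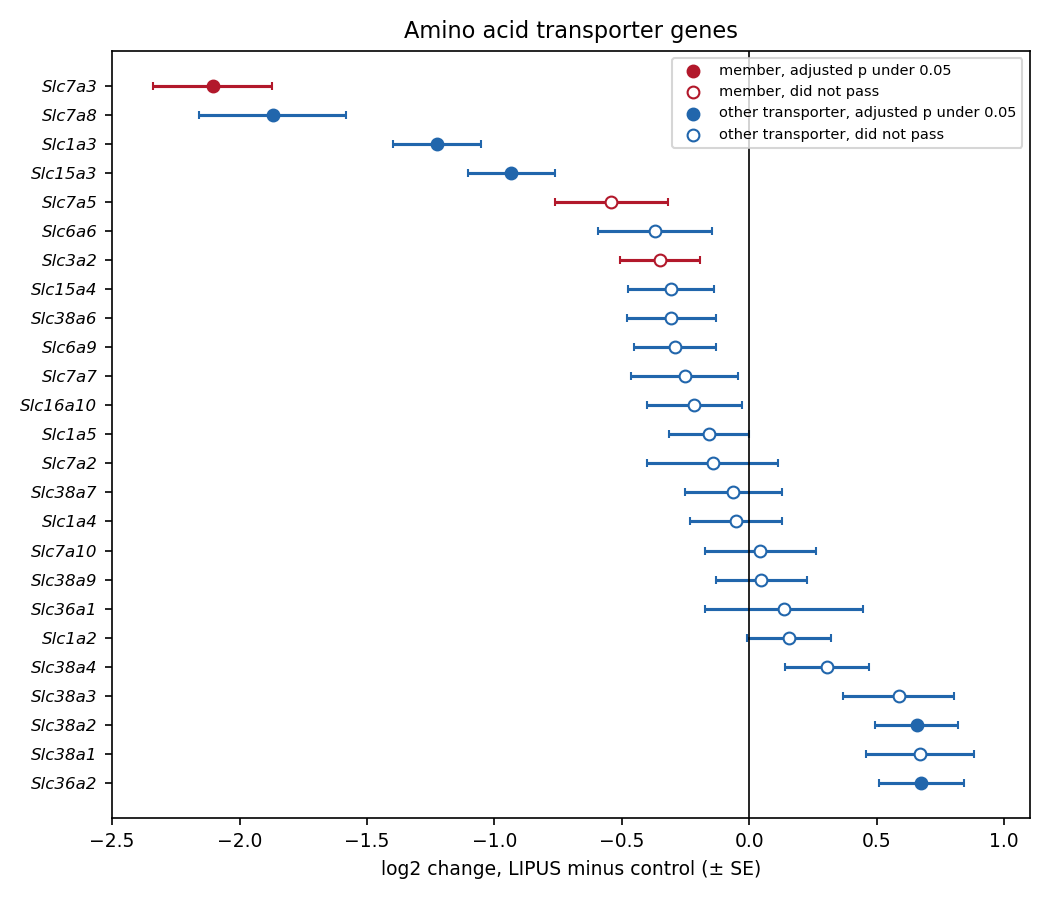
Log2 change ± SE, LIPUS minus control, of 3 transporter genes of the ATF4 list (red) and 22 other amino acid transporters (blue); filled points had an adjusted p under 0.05. Slc7a3 at -2.11 and Slc7a8 at -1.87 are the lowest, and Slc38a2 and Slc36a2 are the filled points above 0.

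Among the 11 calls of the related lists, Hmox1 kept its own with slide as a fixed block, and the others did not. In the authors' value table Slc1a3 (limma, adjusted p 0.0465) and Hmox1 (limma, adjusted p 0.0190) passed, and the others of the 11 did not. The calls of Gadd45b, Glul, Slc1a3, Slc7a8 and Hmox1 held without any 1 array. That of Slc15a3 was lost without control 1 or LIPUS 3, that of Ahcy without control 1 or any 1 of the LIPUS arrays, and those of Gls2 and Selenos without any 1 array other than control 3.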

How the data were processed

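Total RNA of 3 LIPUS and 3 control samples was labelled with Cy3 from 100 ng by Agilent's one-colour kit, per the labels' protocols, and no source used here names the scanner or the image software. The deposited spot tables give, per the file headers, the median intensity of each of 45220 spots and of its local background, and the percent of pixels at the scanner's limit. The authors also deposited 1 value table on a log2 scale, in which the 75th percentile of every column was 0 and the column medians lay between -2.85 and -2.37; no source used here gives the steps behind it.

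Background was corrected with normexp (offset 50) in limma 3.58.1 under R 4.3.3, and each array's 75th percentile over gene probes was subtracted from log2 intensity. A probe was kept if its background-subtracted intensity exceeded the 95th percentile of 153 negative control spots on at least 3 of the 6 arrays. Spots of a probe were averaged, and the brightest kept probe stood for a symbol. Groups were compared with lmFit and eBayes (two-sided) and Benjamini-Hochberg adjustment over 21847 genes and unnamed probes; the fit was checked on simulated data. The number of arrays limits the precision. Probe accessions were matched to RefSeq's rat gene table (GRCr8), which named 10768 probes, and no coordinate of the arrays was used. Alternatives were other scalings, background corrections and filters, the value table, slide as a fixed or random block, a replicate block and leaving out each array.

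The text names every gene of the ATF4 list, up to 4 genes of smallest unadjusted p in each related list, a fixed set of core pathway genes and the 3 genes nearest to Trib3. Marker genes, called genes beyond these and the calls of each list were named after their values were seen. One gene was left out of the related lists and is not reported here. The genes and lists were chosen with earlier results of these data known.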

Additional observations from a re-analysis of the deposited data

How the results depend on the processing

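No paired analysis was made the main one, because the labels name no pairs. Same-numbered LIPUS and control arrays had correlations of 0.00948, 0.00107 and -0.0124 between their deviations from the group means. With 3 arrays per group, these cannot decide whether samples shared a source. With the replicate number as a block, 1175 genes and probes were called, against 1449 without it, with 3 of the 8 ATF4 genes and 8 of the related genes, against 11. The median of all tested genes was 0.03 in the main scaling and -0.32 with spike-in scaling, and the share of calls higher in LIPUS cultures was 43.6% in the main scaling, 32.3% with median centring and 5.30% with spike-in scaling. Counts that moved by more than 1.5 times were, for everything tested, the ATF4 genes and the related genes in that order, 3719, 5 and 28 under spike-in scaling, where Slc3a2 (-0.70) and Slc7a5 (-0.89) also passed, 282, 1 and 1 with slide as a fixed block, and 0, 0 and 0 on the slide that holds both groups, where limma gave an unadjusted p under 0.05 to 3339, 4 and 17. The count of everything tested and of related genes was 655 and 6 with no filter on dim probes, 805 and 3 in the authors' value table, and 2348 and 20 with the trended, robust variance. That of related genes alone moved to 7 with no background correction and to 7 with a normexp offset of 16. Leaving out 1 array gave 642 (without control 1) to 2168 (without control 3) calls in all, 5 to 15 related genes and 3 ATF4 genes each time. Of 167 values of ATF4 genes under other settings, 7 turned sign, all of Cebpb or Slc7a5, neither of which was called in the main fit. Cebpb turned to -0.039 with median centring, to -0.33 under spike-in scaling and to -0.043 in the value table. Slc7a5, which was near background, turned to 0.75 in that table. Among other genes, median centring turned Cebpd to -0.022, and spike-in scaling turned Cebpd to -0.32, Atf5 to -0.11, Ddit4 to -0.25, Cebpa to -0.18 and Tsc2 to -0.10. The value table turned Cebpd to -0.021, Atf5 to -0.61, Impact to -0.048 and Farsa to -0.12, and no background correction turned Phgdh to 0.011. Slide as a fixed block, and likewise the slide that holds both groups, turned Ddit4 to -0.071, Phgdh to 0.20, Slc1a4 to 0.26 and Hspa5 to 0.087, and slide as a random block turned Phgdh to 0.042 and Slc1a4 to 0.030. Leaving out 1 array gave both signs for Cebpb (-0.059 to 0.13), Cebpd (-0.074 to 0.12), Phgdh (-0.12 to 0.12), Slc1a4 (-0.21 to 0.039), Ddit4 (-0.053 to 0.31) and Hspa5 (-0.13 to 0.018); none of these genes had passed the test. The cause was not tested. Brightness limits Psat1 and Slc7a5 at the dim end and Atf4 and Atf5 at the bright end.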
